A study of Mus musculus with 6 samples.

Results

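The C/EBP genes Cebpa, Cebpb, Cebpd, Cebpe and Cebpg and 5 other transcription factor genes of myeloid cells, Spi1, Gfi1, Irf8, Klf4 and Klf2, were followed across 6 RNA-seq libraries of mouse bone marrow. They were chosen by name, and all 10 were found among the 24063 gene symbols of the count table. The cells were LSK cells, which lack surface markers of mature lineages, carry Kit and Sca1, and include haematopoietic stem cells and early progenitors. The 3 knockout libraries came from mice labelled C57/BL6 with floxed alleles of Arid2 (Arid2fl/fl) and the MxCre transgene. The 3 control libraries came from MxCre+ mice whose titles name Arid2 as wild type. Both groups carried MxCre and received pIpC at 6 to 8 weeks of age, and bone marrow was taken 6 weeks later. pIpC mimics viral RNA, and the interferon made in response turns on Cre through the Mx1 promoter. That promoter responds to interferon in many cell types and is not limited to blood. Arid2 encodes a DNA-binding subunit of PBAF, one of the SWI/SNF remodellers of chromatin.

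C/EBP proteins are basic leucine zipper factors that bind DNA as dimers with each other or with related zippers. C/EBPα starts the granulocyte programme in progenitors, C/EBPβ serves granulocyte production under infection and cytokine stress, C/EBPδ is induced by inflammation, and C/EBPε drives the late granule stages. C/EBPγ lacks a strong activation domain and works mostly as a dimer partner. PU.1, the product of Spi1, opens myeloid genes together with the C/EBP proteins. Gfi1 is a repressor that favours neutrophils, Irf8 favours monocytes and dendritic cells, Klf4 acts in monocyte development, and Klf2 restrains activation of lymphocytes, monocytes and endothelium.

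The libraries held 12408966 to 28185678 counted reads, and each gene of the set had between 294 and 11435 reads in every library. Arid2 itself, counted over the whole gene, had 162.5, 150.2 and 155.4 reads scaled to library size (CPM, with TMM scaling) in knockout replicates 1 to 3 and 165.1, 154 and 148.4 CPM in control replicates 1 to 3. Its log2 fold change was 0.00, standard error (SE) 0.06 (edgeR adjusted p = 0.991), so this count does not show the deletion, and the groups are called by their labels. The 3 knockout libraries and control replicate 2 were female by Xist and Y-linked genes, and control replicates 1 and 3 were male. A fold change from a fit with a sex term therefore compares the knockout libraries with control replicate 2 alone. Control replicate 2 thus came from another animal than the male controls. The labels name no animals or litters, so whether all libraries are from separate animals is not known, and the p-values speak only of the spread among these 6 libraries.

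Of the 10 genes, Cebpb rose in the libraries labelled knockout and the other 9 did not pass the test (edgeR, adjusted p under 0.05 over 13679 symbols). Over all symbols tested, 3.85% were called higher and 4.58% lower. All 10 log2 fold changes were positive, with a median of 0.34 against 0.00 over all symbols. In 5 genes, Cebpb, Cebpd, Cebpe, Spi1 and Klf4, the knockout libraries all lay above the controls, and in the other 5 the groups overlapped; 15.1% of all symbols were separated in this way and 16.1% in the opposite way. In whole LSK RNA, a change in the share of cells that carry a transcript and a change in its amount per cell cannot be told apart.

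**Figure D1:**
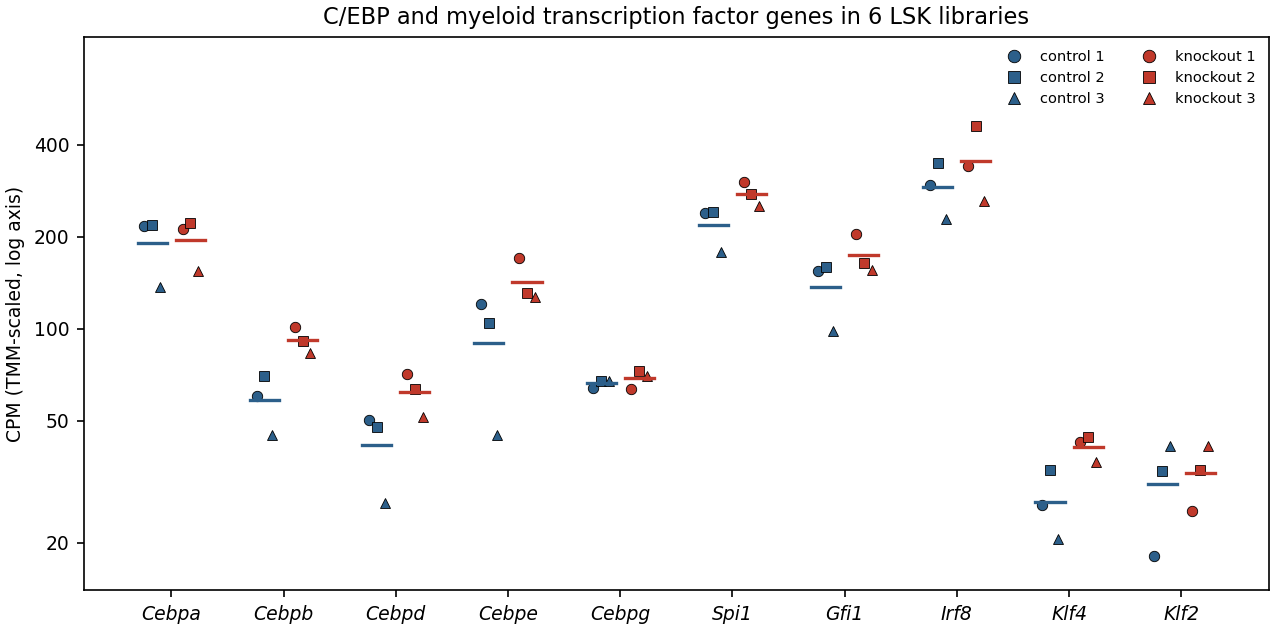
Level of each of the 10 genes in TMM-scaled CPM on a log axis, with circles, squares and triangles for replicates 1, 2 and 3 and a bar at the group mean. Control replicate 3 has the lowest value of 8 of the 10 genes, while Cebpg is nearly level across the 6 libraries.

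Cebpb had 101.1, 91.1 and 83.1 CPM in knockout replicates 1 to 3 and 60.2, 70 and 45 CPM in control replicates 1 to 3. Every knockout library was above every control, and the nearest control was the female replicate 2. The means were 91.7 ± 9.0 against 58.4 ± 12.6 CPM (SD, n = 3 each). This was a log2 fold change of 0.65, SE 0.15 (edgeR adjusted p = 0.0354), or 1.57-fold with a 95% confidence interval of 1.24 to 1.98. The sex term lowered the log2 fold change to 0.39 (edgeR adjusted p = 0.431). The call was also lost without knockout replicate 1, 2 or 3 (log2 fold changes 0.57, 0.65 and 0.71, edgeR adjusted p = 0.106, 0.104 and 0.0574) and without control replicate 1 (0.66, edgeR adjusted p = 0.0953). Cebpb is a gene of 1 exon at chromosome 2, 167688915 to 167690418, plus strand (mm10), and the gene Tmem189 lies across it on the minus strand. How the count treated strand is not given in the sources used, and Tmem189 stood at 43.4 ± 0.85 against 42.9 ± 2.0 CPM (SD, n = 3 each).

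Cebpa, the founder of the granulocyte programme, showed no such separation. Its level was 211.3, 220.9 and 154.8 CPM in knockout replicates 1 to 3 and 217.3, 218.4 and 136.7 CPM in control replicates 1 to 3. Replicate 3 was the low library in both groups, and the other 4 libraries lay close together. The groups gave a log2 fold change of 0.04, SE 0.19 (edgeR adjusted p = 0.929), and the 95% confidence interval of the ratio was 0.758 to 1.39. With the sex term the sign turned, to −0.16 (edgeR adjusted p = 0.874), and it was also negative without knockout replicate 1 or 2 or control replicate 3. Cebpa lies on chromosome 7, 35119293 to 35121928, plus strand (mm10).

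The stretches of 250 bases upstream of the start sites of Cebpa and Cebpb are shown because these neighbours in function had such different values, with Klf4, which had the second smallest p of the set. They are RefSeq sequences on GRCm38.p6, the assembly of mm10, and run 5′ to 3′ on the gene's strand. Capitals mark TGACG, the half-site of the cyclic AMP response element, and TTGCG, a half-site of the C/EBP palindrome, on either strand.
Cebpa, chr7:35119043-35119292, plus strand: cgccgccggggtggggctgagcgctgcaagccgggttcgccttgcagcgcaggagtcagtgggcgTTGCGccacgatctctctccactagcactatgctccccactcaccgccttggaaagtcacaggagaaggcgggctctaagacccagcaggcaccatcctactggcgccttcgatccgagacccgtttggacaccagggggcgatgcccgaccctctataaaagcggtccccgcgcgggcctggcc
Cebpb, chr2:167688665-167688914, plus strand: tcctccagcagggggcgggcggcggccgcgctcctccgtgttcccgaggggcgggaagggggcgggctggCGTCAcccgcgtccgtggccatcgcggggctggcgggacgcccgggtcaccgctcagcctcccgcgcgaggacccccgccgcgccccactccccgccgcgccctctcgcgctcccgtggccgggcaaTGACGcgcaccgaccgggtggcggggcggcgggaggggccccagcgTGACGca
Klf4, chr4:55532476-55532725, minus strand: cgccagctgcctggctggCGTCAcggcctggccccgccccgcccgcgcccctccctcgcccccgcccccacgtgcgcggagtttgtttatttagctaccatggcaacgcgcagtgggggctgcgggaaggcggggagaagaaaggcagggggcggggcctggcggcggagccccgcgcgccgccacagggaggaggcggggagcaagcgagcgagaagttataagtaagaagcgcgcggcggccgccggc
The Cebpb stretch held 3 copies of TGACG, the Klf4 stretch 1 and the Cebpa stretch 0. Klf2, whose groups overlapped, also held 1 copy, so that TGACG was in 3 of the 9 windows at hand for the set. Of 32851 mouse windows of this length, 17.8% held at least 1 copy on either strand. TTGCG occurred once in the Cebpa stretch and in neither of the others, against 14.5% of all windows. A TATA box, TATAAA on either strand, was found upstream of Cebpa and in 1 window of Irf8 and not upstream of Cebpb or Klf4, and 12.4% of all windows held one. Bases G and C made up 66.4% of the Cebpa stretch, 81.6% of the Cebpb stretch and 74% of the Klf4 stretch, and their median over all windows was 52.4%. RefSeq promoters were at hand for 7 of the 10 genes, and none of the 9 windows of those genes held GAGGAA, the core of PU.1 sites, which was found in 23.3% of all windows on either strand. The shares over all windows were not matched for G and C content, and the matches describe letters and not bound sites.

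Cebpd and Cebpe, the inflammatory and the late granulocytic members, were higher in each knockout library than in any control but did not pass the test. Cebpd had 71.1, 63.6 and 51.4 CPM in knockout replicates 1 to 3 and 50.5, 47.6 and 27 CPM in control replicates 1 to 3. The lowest knockout library was thus barely above the highest control. Its log2 fold change was 0.57, SE 0.22 (edgeR adjusted p = 0.142), and 0.39 with the sex term. DESeq2 and the fit without a filter on low counts gave Cebpd adjusted p of 0.0421 and 0.0545. Cebpd overlaps Spidr on the minus strand, which had 44.7 ± 4.9 against 44.2 ± 2.4 CPM (SD, n = 3 each).

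Cebpe had 169.9, 131 and 127 CPM in knockout replicates 1 to 3 and 120.5, 104.5 and 44.8 CPM in control replicates 1 to 3. It was the most variable gene of the set, with 3.79 times as many CPM in its highest library as in its lowest, control replicate 3. Its log2 fold change was 0.66, SE 0.30 (edgeR adjusted p = 0.22), close to that of Cebpb but with the larger SE. Without control replicate 3 it was 0.34 (edgeR adjusted p = 0.157), and in the fit with sex 0.45 (edgeR adjusted p = 0.757). Cebpe (chromosome 14, 54710360 to 54712174, minus strand, mm10) overlaps no other annotated gene.

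Cebpg was the steadiest gene of the set. It had 63.5, 73.1 and 70.3 CPM in knockout replicates 1 to 3 and 63.9, 67.7 and 67.6 CPM in control replicates 1 to 3, so that its highest library had 1.15 times its lowest. The groups differed by a log2 fold change of 0.05, SE 0.07 (edgeR adjusted p = 0.691), and the interval of the ratio, 0.927 to 1.16, was the narrowest of the 10. Cebpg and Cebpa lie 62719 bases apart on chromosome 7 on opposite strands. Both had log2 fold changes near 0, but they varied differently between libraries, since Cebpa was low in replicate 3 of both groups and Cebpg was not.

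Ratios of read counts within a library cancel its depth and scaling; those of Cebpb, Cebpd and Cebpe to Cebpa were all higher in the knockout libraries. The log2 ratio of Cebpb to Cebpa was −1.06, −1.28 and −0.90 in knockout replicates 1 to 3 and −1.85, −1.64 and −1.60 in control replicates 1 to 3. All knockout libraries lay above all controls, and the female control lay between the male controls. The difference was 0.62, or 1.53-fold. The exact two-sided permutation test gave p = 0.1, the smallest that 3 against 3 libraries allow, so that no ratio could pass at 0.05.

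The same ratios for Cebpd and Cebpe were computed after the values had been seen. The log2 ratio of Cebpd to Cebpa was −1.57, −1.80 and −1.59 in knockout replicates 1 to 3 against −2.10, −2.20 and −2.34 in control replicates 1 to 3, a difference of 0.56. That of Cebpe to Cebpa was −0.31, −0.75 and −0.29 against −0.85, −1.06 and −1.61, a difference of 0.72. In both ratios the knockout libraries were all above the controls and the female control lay between the males. The ratio of Cebpg to Cebpa had the same mean in both groups, −1.49, and overlapped between them. Over the 6 ratios computed, the adjusted exact permutation p was 0.15 for each of the 4 without overlap, the fourth being Spi1 to Gata2.

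**Figure D2:**
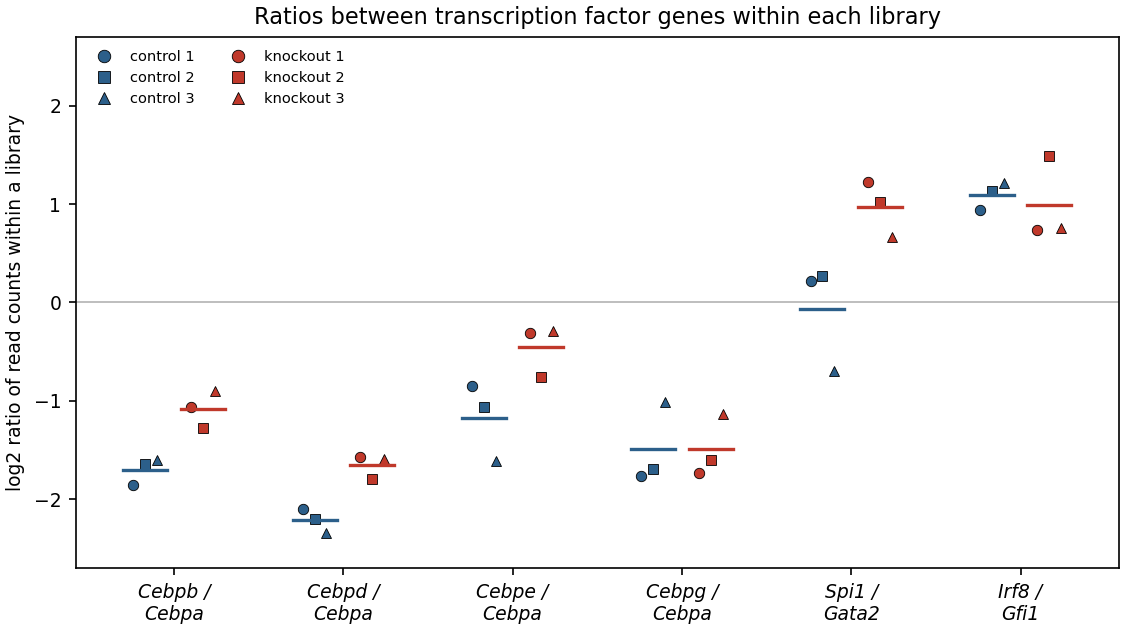
Log2 ratio of read counts between pairs of genes within each library, with circles, squares and triangles for replicates 1, 2 and 3 and a bar at the group mean. The knockout libraries lie above all controls for Cebpb, Cebpd and Cebpe over Cebpa and for Spi1 over Gata2, while Cebpg over Cebpa and Irf8 over Gfi1 overlap.

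Levels were compared between genes per length, as CPM per kilobase of annotated exon. In controls, Spi1 had 81.3 ± 13.3, Cebpe 72.5 ± 32.1 and Cebpa 72.4 ± 17.8 CPM per kilobase (SD, n = 3), and the ranges of these neighbours overlapped. Gfi1 (43 ± 10.6), Irf8 (41.2 ± 8.4) and Cebpb (38.8 ± 8.4) came next, overlapping each other but neither Cebpa above nor Klf2 below. Cebpe, which ranged from 36.1 to 97.1 CPM per kilobase in controls, overlapped Gfi1, Irf8 and Cebpb. Klf2, Cebpg, Cebpd and Klf4 followed at 16.9 ± 6.5, 11.8 ± 0.38, 11.1 ± 3.4 and 8.9 ± 2.3 CPM per kilobase, each overlapping the next. In the knockout libraries Cebpe (114.9 ± 19.1) and Spi1 (102.6 ± 9.2) overlapped at the top and stood clear of Cebpa (74.2 ± 13.6). The range of Cebpb (61 ± 6) overlapped that of Cebpa there, which it did not in controls. Within every library of either group, Cebpb was below Cebpa.

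The share of Cebpa in the summed per-kilobase level of the 5 C/EBP genes was 25.5%, 29.9% and 24.2% in knockout replicates 1 to 3 and 33.7%, 34.8% and 37.8% in control replicates 1 to 3. Every knockout library had a smaller Cebpa share than every control. Cebpe took 41.1 ± 3.0% of that sum in the knockout and 33.8 ± 6.8% in the control libraries (SD, n = 3 each), and its ranges overlapped. Cebpb took 21.9 ± 0.74% and 19.2 ± 2.7%, also with overlap. The summed level itself was 314.5, 279.9 and 242.6 CPM per kilobase in knockout replicates 1 to 3 and 244.4, 238.4 and 137.1 in control replicates 1 to 3. Control replicate 3 was far below the other libraries, and the groups overlapped, since knockout replicate 3 was below control replicate 1.

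Spi1, which encodes PU.1, had 301.4, 276.1 and 251.9 CPM in knockout replicates 1 to 3 and 239.1, 240.3 and 177.9 CPM in control replicates 1 to 3. The groups did not overlap, but the gap between them was small. Its log2 fold change was 0.34, SE 0.12 (edgeR adjusted p = 0.126), and 0.20 with the sex term. Gata2, a factor of stem cells and of the erythroid, megakaryocyte and mast cell branches whose protein is antagonised by PU.1, moved the other way. It had 128.6, 136 and 158.9 CPM in knockout replicates 1 to 3 and 205.8, 199.5 and 287.4 CPM in control replicates 1 to 3. It had a log2 fold change of −0.71, SE 0.14 (edgeR adjusted p = 0.0244), and −0.50 when sex was fitted (edgeR adjusted p = 0.361). The Gata2 call was lost without knockout replicate 1 or 2 (−0.65 and −0.68, edgeR adjusted p = 0.0823 and 0.0955).

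The log2 ratio of Spi1 to Gata2 was 1.23, 1.02 and 0.66 in knockout replicates 1 to 3 and 0.22, 0.27 and −0.69 in control replicates 1 to 3. In control replicate 3 alone, Gata2 exceeded Spi1. The difference of means was 1.04, or 2.06-fold (exact permutation p = 0.1, two-sided, the smallest possible), and it was between 0.73 and 1.21 with each library left out. The female control was the highest of the controls and still below every knockout library.

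Gfi1 and Irf8, which favour the neutrophil and the monocyte branch, overlapped between the groups. Gfi1 had 203.9, 164.1 and 155.6 CPM in knockout replicates 1 to 3 and 154.2, 158.7 and 98.3 CPM in control replicates 1 to 3. The female control was above knockout replicate 3. Gfi1 had a log2 fold change of 0.35, SE 0.18 (edgeR adjusted p = 0.27). Irf8 had 339.6, 461.2 and 262.5 CPM in knockout replicates 1 to 3 and 295.7, 347.1 and 228.2 CPM in control replicates 1 to 3. Its knockout libraries spread more widely than the difference between the groups, with a log2 fold change of 0.29, SE 0.21 (edgeR adjusted p = 0.439), and 0.03 with the sex term. The log2 ratio of Irf8 to Gfi1 was 0.99 ± 0.43 in the knockout and 1.09 ± 0.14 in the control libraries (SD, n = 3 each; exact permutation p = 0.8, two-sided). Its difference, −0.10, turned positive without knockout replicate 1 or 3 (0.028 and 0.019).

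Klf4 had 42.8, 44.2 and 36.6 CPM in knockout replicates 1 to 3 and 26.5, 34.5 and 20.6 CPM in control replicates 1 to 3. All knockout libraries were above all controls, by a narrow margin over the female control. Klf4 had a log2 fold change of 0.59, SE 0.17 (edgeR adjusted p = 0.0716), and 0.26 when sex was fitted (edgeR adjusted p = 0.614). Klf4 was called by DESeq2 (adjusted p = 0.0105), by edgeR with no filter on low counts (adjusted p = 0.0205) and by edgeR without control replicate 2 (0.82, adjusted p = 0.0216).

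Klf2 followed a pattern of its own. It had 25.3, 34.6 and 41.5 CPM in knockout replicates 1 to 3 and 18.1, 34.2 and 41.3 CPM in control replicates 1 to 3, so that the groups overlapped over nearly their whole range. Its log2 fold change was 0.11, SE 0.28 (edgeR adjusted p = 0.848), and its sign turned with the sex term (−0.023) and without knockout replicate 3 or control replicate 1. Replicate 3 was the high library of Klf2 in each group, where it was the low one for Cebpa, Cebpb, Cebpd, Cebpe, Spi1, Gfi1, Irf8 and Klf4.

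**Figure D3:**
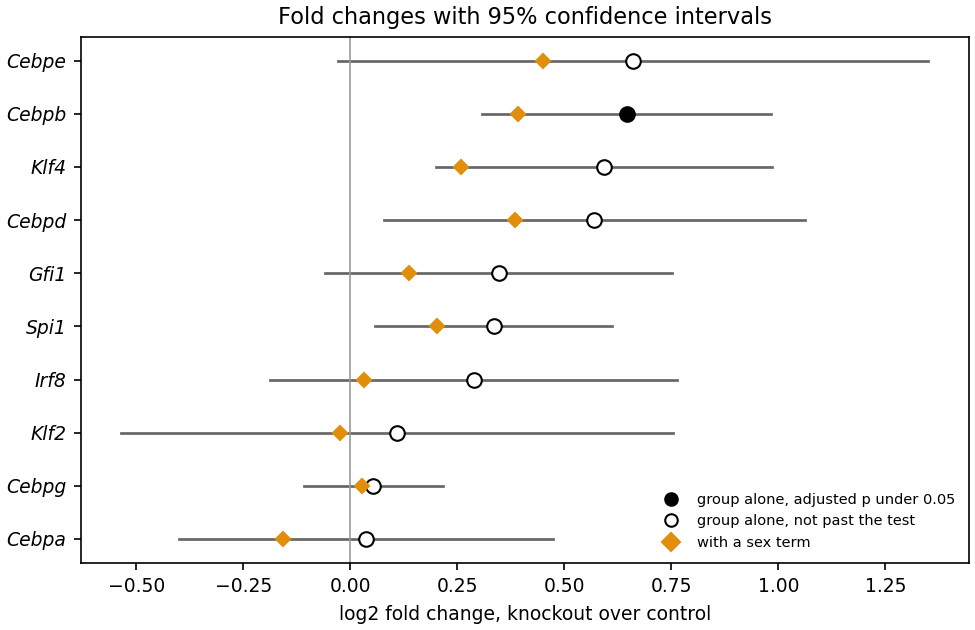
Log2 fold change of the libraries labelled knockout over controls for each gene, with circles for the test by group alone, bars for its 95% confidence interval and diamonds for the fit with a sex term. Every diamond lies to the left of its circle, and the diamonds of Cebpa and Klf2 lie below 0.

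Partners and regulators of the C/EBP proteins did not pass the test. Of 12 listed genes, 0 were called by edgeR, 7 were positive and the median log2 fold change was 0.06. An unadjusted p under 0.05 was found for 3 of them, Atf3, Stat3 and Fbxw7, and for 24.9% of all symbols tested (3405). DESeq2 gave Atf3, Stat3 and Fbxw7 adjusted p of 0.0563, 0.158 and 0.166. Stat3, which carries cytokine signals to Cebpb and Cebpd, had a log2 fold change of 0.17 (edgeR adjusted p = 0.141) and Trib1, an adaptor for C/EBPα degradation, 0.47 (edgeR adjusted p = 0.339). Atf3, a stress-induced zipper gene, had a log2 fold change of 0.83 and 9.3 ± 4.3 against 5.1 ± 0.64 CPM (SD, n = 3 each, edgeR adjusted p = 0.143). Trib2, Ddit3, which encodes the dominant-negative partner CHOP, and Atf4 had −0.05, 0.12 and −0.03. Fbxw7, a ubiquitin ligase subunit, had −0.33 (edgeR adjusted p = 0.166).

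Among 21 other myeloid transcription factor genes, 4 rose, 2 fell and 15 did not pass, with a median log2 fold change of 0.12. Id2, an inhibitor of E proteins that marks dendritic and innate lymphoid precursors, had 42.6, 44.8 and 45.7 CPM in knockout replicates 1 to 3 and 27.9, 28.3 and 22.7 CPM in control replicates 1 to 3. The groups were far apart relative to their spread (log2 fold change 0.75, SE 0.10, edgeR adjusted p = 0.00596), and Id2 was called whichever of the 6 libraries was left out, but not with sex fitted (0.65, edgeR adjusted p = 0.135). Batf3 (0.78), a factor of cross-presenting dendritic cells, kept its call only when knockout replicate 1 was left out, and its edgeR adjusted p ranged from 0.0302 to 0.157 with a library left out. Irf5 (0.41), an activator of inflammatory cytokine genes, lost its call without knockout replicate 2 or 3 or control replicate 1 or 3 (edgeR adjusted p up to 0.1). Runx1 (−0.36) and Myb (−0.31), both needed for definitive haematopoiesis, fell. Runx1 lost its call without knockout replicate 2 or control replicate 1 (edgeR adjusted p = 0.0665 and 0.065), and Myb without any library but control replicate 3 (edgeR adjusted p up to 0.1).

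The remaining Klf and Irf genes varied in both directions. Of 12 other Klf genes tested of 15 listed, Klf7 rose (7.2 ± 0.53 and 3.8 ± 0.28 CPM in knockout and control, SD, n = 3 each, a log2 fold change of 0.93, edgeR adjusted p = 0.0184), and 11 did not pass; the median was 0.13. Klf7 lost its call without knockout replicate 1 or 2 (0.91 and 0.89, edgeR adjusted p = 0.0579 and 0.0829). Klf6 and Klf13 had log2 fold changes of 0.38 and 0.24 (edgeR adjusted p = 0.0856 and 0.0601). Of 8 other Irf genes, Irf5, named above, rose and 7 did not pass, with a median of 0.15, and Irf4 had a log2 fold change of 0.59 (edgeR adjusted p = 0.0837). Among 11 tested factors of other lineages, Gata2 fell and 10 did not pass, with a median of −0.25. Tcf3 and Notch1, which act in lymphoid commitment, had −0.28 and −0.48 (edgeR adjusted p = 0.0683 and 0.0685).

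Myeloid receptor, granule and monocyte genes and targets of Klf2 were described by list. Only the Klf2 list was drawn up by target status, and whether the other genes respond to the transcription factors of the set was not tested. Some lists share cells of origin, so they are not independent of each other. All 7 myeloid cytokine receptor genes had positive log2 fold changes, with a median of 0.53 against 0.00 over all symbols, 2 rose and 5 did not pass. Csf1r, the M-CSF receptor and a classic target of PU.1, had 256.5, 300.1 and 350.3 CPM in knockout replicates 1 to 3 and 164.2, 230.7 and 177.1 CPM in control replicates 1 to 3. Its log2 fold change was 0.66 (edgeR adjusted p = 0.0318), and 0.39 with the sex term. Csf2rb2 had 0.62 (edgeR adjusted p = 0.0304) and Csf2ra, a GM-CSF receptor chain, 0.65 (edgeR adjusted p = 0.0505). Csf1r lost its call without knockout replicate 2 or 3 or control replicate 1 or 3 (edgeR adjusted p up to 0.102), and Csf2rb2 without any knockout library (up to 0.0955). Csf3r, the G-CSF receptor and a target of C/EBPα, had 0.24 (edgeR adjusted p = 0.121).

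Primary granule genes are made at the promyelocyte stage and secondary granule genes later, under C/EBPε. Of 8 primary granule genes, Ctsc, the protease that activates granule serine proteases, rose (log2 fold change 0.69, edgeR adjusted p = 0.0222), and 7 did not pass, with a median of 0.32. Ctsc lost its call without knockout replicate 2 or control replicate 1 (edgeR adjusted p = 0.0695 and 0.0731). All 8 were positive, from 0.11 for Elane to 0.71 for Fcnb. Fcnb, a ficolin gene, and Ms4a3, a marker of granulocyte and monocyte progenitors, had edgeR adjusted p of 0.154 and 0.235, with a log2 fold change of 0.58 for Ms4a3. Prtn3, Ctsg and Mpo had 0.37, 0.20 and 0.18. Of 13 secondary granule and neutrophil genes, 7 rose, 1 fell and 5 did not pass, with a median of 0.89. Cd177, a neutrophil surface antigen, had 289, 231.4 and 260.9 CPM in knockout replicates 1 to 3 and 108.3, 101 and 68.5 CPM in control replicates 1 to 3 (log2 fold change 1.49, edgeR adjusted p = 0.00345). The others that rose were Lcn2 (1.07), Ifitm6 (0.96), Chil3 (0.92), Cybb (0.90), Ltf (0.67) and Ngp (0.65). Cd177, Lcn2, Ifitm6 and Ltf were called whichever library was left out. Chil3 and Cybb lost their calls without any knockout library or control replicate 1 (edgeR adjusted p up to 0.128 and 0.077), and Ngp without any knockout library or control replicate 2 (up to 0.127). Of those that did not pass, S100a8, S100a9 and Camp had 0.93, 0.89 and 0.83, Mmp8 0.023 and Mmp9 −0.14. The gene that fell was Padi4, a histone-citrullinating enzyme of neutrophils, with 36.8, 36.3 and 41.1 CPM in knockout replicates 1 to 3 and 64.9, 71 and 85.1 CPM in control replicates 1 to 3 (log2 fold change −0.95, edgeR adjusted p = 0.00346). The ranges of the 2 granule lists overlapped, and the difference between them was not tested.

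Of 12 monocyte and macrophage genes, 7 rose and 5 did not pass, with all 12 positive and a median of 0.73. Cd14, the lipopolysaccharide co-receptor and a C/EBP target, had 16.9, 23.7 and 29.8 CPM in knockout replicates 1 to 3 and 6.1, 8.2 and 8.6 CPM in control replicates 1 to 3 (log2 fold change 1.61, edgeR adjusted p = 0.00623). Lyz2 (0.71) and the chemokine receptor gene Ccr2 (0.76) were, like Cd14, called whichever library was left out. The other genes of this list that rose were Mpeg1, Ctss, Cst3 and Cd68, and each lost its call in at least 1 such fit (edgeR adjusted p up to 0.134). With sex fitted, 0 of the 53 other genes followed in this way was called, and the lowest edgeR adjusted p was 0.0761. Among genes that Klf2 is known to activate in lymphocytes or endothelium, S1pr1, Itgb7 and Thbd were not called, with log2 fold changes of −0.25, −0.32 and −0.29 (edgeR adjusted p = 0.456, 0.214 and 0.241). Klf2 itself had near-equal means in the groups.

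**Figure D4:**
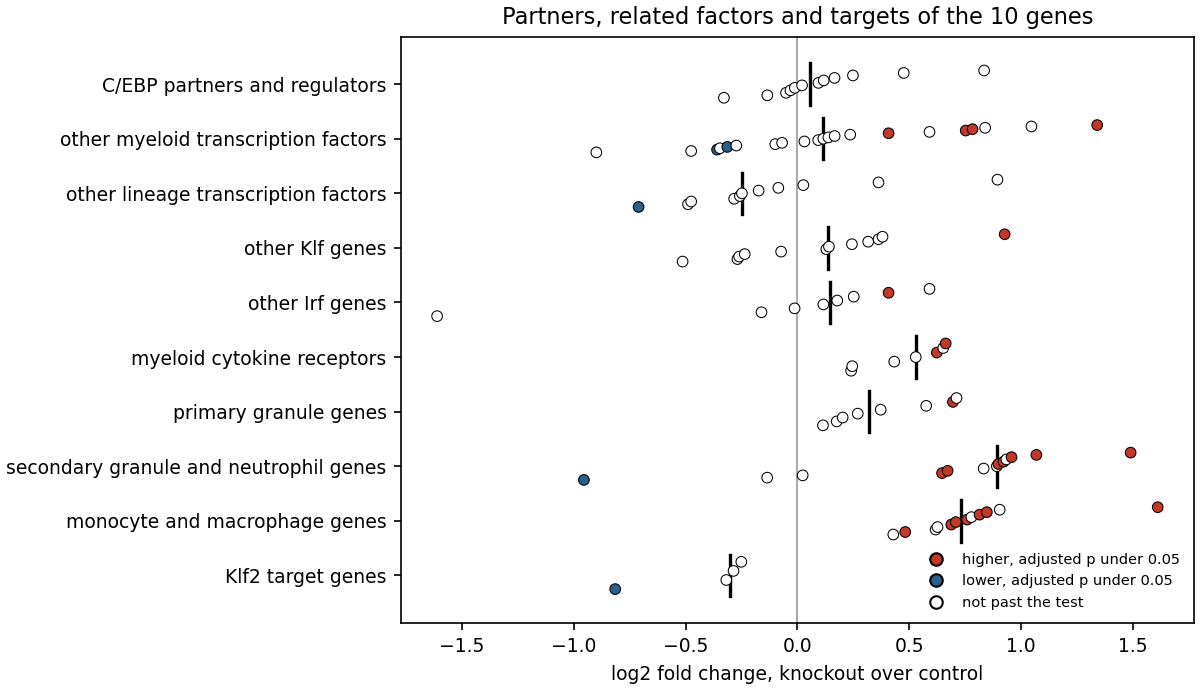
Log2 fold change of every tested gene of 10 lists, with filled points for genes past the test and a bar at each list's median. The lists hold partners, related factors, myeloid genes and targets of Klf2. Medians run from −0.30 for genes activated by Klf2 to 0.89 for secondary granule and neutrophil genes.

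Markers of other cells were summed by list, and not every list separated the groups. Of 3 measured granulocyte and monocyte markers of the lineage gate, Itgam, which encodes CD11b, rose (log2 fold change 0.75, edgeR adjusted p = 0.0327, up to 0.0989 without a knockout library or control replicate 1) and Cxcr2 and Retnlg did not pass. Their summed level was 289 to 354.1 CPM in the knockout and 147.1 to 219.3 CPM in the control libraries. Itgam made up most of this sum, at 271.4 to 326.2 against 123.9 to 203.4 CPM. Cxcr2 and Retnlg overlapped between the groups. Of 5 erythroblast markers, 4 rose, and their sum was 61.3 to 181.8 against 10.9 to 21.6 CPM. B cell markers summed to 9.6 to 11 against 5.7 to 9.6 CPM and T and NK cell markers to 230 to 297.1 against 170 to 240.9 CPM, with 0 called by edgeR in either list and 1 unadjusted p under 0.05 over both, for Cd4. Most of the T and NK sum was Nkg7, which is also in the primary granule list. The other 4 genes of that list, Cd3e, Cd3d, Cd4 and Cd8a, summed to 12.8 to 17.5 against 10.9 to 16.7 CPM. No marker of these lists was at 0 in every library, and Pax5 was at 0 in 1 of them. Of 7 stem cell and gate genes, 4 fell, among them Flt3, Ly6a and Cd34. Ly6a, which encodes Sca1, lost its call whichever library was left out (edgeR adjusted p up to 0.11), Flt3 without knockout replicate 2 or control replicate 1 (up to 0.0761) and Cd34 without knockout replicate 1 or control replicate 1 (up to 0.067). All 7 were negative, with a median of −0.53 and a sum of 1082.6 to 1232 against 1482.9 to 1822.1 CPM. The part of these markers in the values of the 10 transcription factor genes was not tested.

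The genes whose levels ran most like Cebpb over the 6 libraries were Slc32a1, Stat6 and Rnf144b, with Pearson r of 0.997 each on log2 CPM. Among 12770 symbols compared, 287 had an r above 0.95, so that a high r with Cebpb over these 6 libraries was not limited to the genes named. Rnf144b, a ubiquitin ligase gene, had 45.5 ± 3.4 against 28.6 ± 5.8 CPM (SD, n = 3 each), a log2 fold change of 0.66 (edgeR adjusted p = 0.0298), and it lost its call without any knockout library or control replicate 1 (up to 0.0925). Stat6, the interleukin 4 signal transducer, had a smaller log2 fold change of 0.20 (edgeR adjusted p = 0.117). Slc32a1, a vesicular transporter gene of inhibitory neurons, was at most 2.1 CPM in any library.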

How the data were processed

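RNA was measured in 6 libraries of sorted mouse LSK cells, 3 labelled knockout and 3 control. Per the labels' protocols, TRIzol RNA was selected for poly(A) and made into libraries with a directional kit. The authors deposited raw counts, whole numbers of reads for each gene symbol, with no normalization. Per the submitters' processing notes, STAR and mm10 were used. How reads were counted, with which annotation and strand setting, is not given in the sources used, so reads of overlapping genes cannot be assigned with certainty.

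The test was run in R 4.3.3 with edgeR 4.0.16 (filterByExpr with minimum count 10 and minimum total 15, TMM scaling, quasi-likelihood F test by group), which kept 13679 symbols. P-values were adjusted over all of these by the Benjamini-Hochberg method. CPM and SE were computed here from the same fit, and positions and exon lengths came from GENCODE M21 on mm10. The SE was the absolute log2 fold change divided by the square root of the F statistic, and confidence intervals were built from it. Ratios had 0.5 reads added to each count and an exact permutation test. Alternatives were DESeq2 1.42.0, limma 3.58.1 (voom), other scalings and filters, a looser threshold of 0.1, a replicate block, a sex term and each library left out. On simulated counts for knockout against control (13548 genes tested), edgeR called 87% of the genes with a 2-fold change and 95.9% with a 4-fold change, with 13 false calls among 193. Within a group, the simulated means had no effect of sex or replicate number, and changes smaller than 2-fold were not simulated.

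The 10 genes and the lists were chosen with earlier results of these data known. Named genes are the 10, up to 3 genes with the smallest p of each list, and the 3 symbols most like each called gene of the set. Others were named after their values were seen. The listed monocyte symbol, Adgre1, and the granulocyte symbol Ly6g had no row under that name, and Emr1, the older name of Adgre1, was used. Some genes of these lists are counted but not reported here by name.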

Additional observations from a re-analysis of the deposited data

How the results depend on the processing

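Of 140 values of the 10 genes under the alternatives, 118 kept direction and side of the threshold, 10 passed it newly, 5 lost it and 7 turned sign. The 7 were Cebpa with the sex term (−0.16) and with a library left out (range −0.15 to 0.18), and Klf2 with the sex term (−0.023) and with a library left out (−0.16 to 0.35). Of 742 values of 53 other named genes, 590 kept direction and side, 122 lost the threshold, 30 passed it newly and 0 turned sign. The 1152 genes called became 2172 with the replicate block, 43 with the sex term and 2002 at an adjusted p under 0.1, and 290 to 984 with a library left out. The 1 call among the 10 became 2 without a filter on low counts (Klf4 added), 3 with DESeq2 (Klf4 and Cebpd added), 2 at an adjusted p under 0.1, 0 with the sex term and 0 to 2 with a library left out. With the sex term, edgeR gave 1633 symbols an unadjusted p under 0.05. The cause of these shifts was not tested.

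With the replicate number as a block, 7 of the 10 genes were called (Cebpb, Cebpd, Cebpe, Spi1, Gfi1, Irf8 and Klf4), where 15.9% of all symbols were. Deviations of same-numbered libraries correlated at 0.357, 0.00 and 0.381 for numbers 1, 2 and 3 across genes, and knockout replicate 2 did not correlate best with its own number, so the labels share a number and no pairing was assumed. The log2 ratio of Irf8 to Gfi1 differed by −0.35 to 0.028 with a library left out, turning positive without knockout replicate 1 or 3 (0.028 and 0.019), and that of Cebpg to Cebpa by −0.18 to 0.24. The other 4 ratios kept their sign in every alternative, from 0.50 to 0.88 for the C/EBP genes over Cebpa. With 3 libraries a group, no exact permutation test could reach a p below 0.1.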
